A study of Homo sapiens with 3 samples.

Results

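Transforming growth factor beta (TGF-beta) signalling was described in PC3-Luc human prostate cancer cells through 10 genes: the ligand genes TGFB1 and TGFB2, the microfibril gene LTBP2, the receptor genes TGFBR1 and TGFBR2, the signal transducer gene SMAD3, the inhibitor genes SMAD7, SKIL and PMEPA1, and the matrix gene TGFBI. They were taken by symbol from a count table of 21726 genes, in which all 10 were present once. Counts came from 9 libraries of 3 lines. A line with a control short hairpin (control below) was set beside the lines sh718 and sh720, which carry short hairpins against CTHRC1, with 3 libraries each. All 3 lines carry luciferase from a pMSCV vector and are derivatives of PC3, an androgen-independent adenocarcinoma line from a bone metastasis. Cells had been cultured for 24 h before RNA was taken. The labels name neither the hairpin vectors nor whether a line is 1 clone or a pool. They also leave unsaid whether a line's 3 libraries were grown as separate cultures, so the p-values below rest on a spread among libraries that may be technical.

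TGF-beta is secreted as a latent complex, held by its own propeptide and tethered in the matrix by certain latent TGF-beta binding proteins, and is released by integrins, proteases and acid. The free ligand binds the type II receptor, TGFBR2, which phosphorylates the type I receptor, TGFBR1, and this in turn phosphorylates SMAD2 and SMAD3, which enter the nucleus with SMAD4. Among the genes they switch on are inhibitors of the pathway itself, SMAD7, SKIL and PMEPA1. Bone matrix is a large store of TGF-beta, and its release during bone resorption is known to act on tumour cells that settle there.

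Library totals ran from 883663 to 1108960 counts, and mitochondrial transcripts held 12% to 16.4% of a library. CTHRC1, the hairpin target, had 331 summed counts in control, 5 in sh718 and 47 in sh720. Epithelial markers were present (8 of 8 listed, with a summed level of 2082 to 2314 CPM, counts scaled to a common library size, in the control libraries, 2205 to 2424 in sh718 and 2486 to 2714 in sh720), although CDH1, which encodes the epithelial cadherin, had 15 counts in all. These sums hold markers that ran in different directions: the keratin gene KRT7 averaged 312, 51.9 and 526 CPM in control, sh718 and sh720, EPCAM 37.8, 14.4 and 40.4, and the keratin gene KRT19 783, 1020 and 856. Of 8 luminal prostate markers, KLK3, KLK2 and FOLH1 were not listed in the table. The summed level of these 8 was 291 to 345 CPM in control, 272 to 286 in sh718 and 275 to 284 in sh720, most of it HOXB13. Fibroblast markers (5 of 8 listed) summed to at most 8.33 CPM and leukocyte markers (3 of 7) to at most 3.54 CPM in any library. Endothelial markers (3 of 5) summed to 24.8 to 27.0 CPM in control, 55.4 to 64.6 in sh718 and 13.4 to 31.2 in sh720. That level was mostly PECAM1, while CDH5 and VWF were not listed and TEK had 1 count. Their part in the results below was not tested. In bulk RNA, fewer cells with a transcript and less of it per cell cannot be told apart.

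Differences were tested with edgeR's quasi-likelihood test on all 9 libraries, and a gene was called at a Benjamini-Hochberg adjusted p under 0.05 over all genes tested. The test took genes with at least 60 counts over the 9 libraries. Of the 10 members, 6 met this minimum (TGFB1, TGFBR1, TGFBR2, SMAD3, SKIL and PMEPA1), while TGFB2, LTBP2, SMAD7 and TGFBI, with 52, 52, 32 and 8 counts, did not. Levels are CPM scaled by edgeR's TMM method and are given per library in the order 1 to 3. Changes are log2 differences with their standard error (SE).

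The promoters of the 3 members that differed between sh718 and sh720 are shown so that the letters upstream of each can be read beside its values. They are the RefSeq stretches (GRCh38.p14) before the most upstream start of each gene, ended where a GENCODE exon of the gene begins. Capitals mark CAGAC or its reverse complement GTCTG, the short sequence that SMAD3 and SMAD4 bind. The TGFBR2 stretch is chr3:30606106-30606355 on the plus strand, SKIL is chr3:170357465-170357677 on the plus strand and PMEPA1 is chr20:57711537-57711722 on the minus strand, all written 5′ to 3′ along the gene.
TGFBR2: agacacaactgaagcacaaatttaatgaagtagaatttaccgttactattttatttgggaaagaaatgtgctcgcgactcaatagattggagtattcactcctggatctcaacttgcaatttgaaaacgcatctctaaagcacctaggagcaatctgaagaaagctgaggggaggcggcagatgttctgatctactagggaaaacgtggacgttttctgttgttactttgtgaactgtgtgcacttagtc
SKIL: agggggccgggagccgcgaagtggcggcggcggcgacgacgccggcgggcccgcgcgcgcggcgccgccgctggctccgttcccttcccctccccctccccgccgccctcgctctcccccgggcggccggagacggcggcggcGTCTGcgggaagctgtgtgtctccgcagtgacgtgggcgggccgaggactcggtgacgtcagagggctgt
PMEPA1: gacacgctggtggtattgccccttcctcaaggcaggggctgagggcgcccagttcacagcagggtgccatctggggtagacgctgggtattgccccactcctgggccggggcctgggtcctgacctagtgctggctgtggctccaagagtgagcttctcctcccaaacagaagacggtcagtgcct

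The SKIL stretch held CAGAC once, on the strand opposite to the gene, beginning 70 bases before the GENCODE start of the gene, and the TGFBR2 and PMEPA1 stretches held none. PMEPA1 has 4 starts in the RefSeq table, and 2 of their 250-base upstream windows held CAGAC. Counted over all starts on both strands, CAGAC was in 12 of the members' 27 windows, against 38% of 35116 windows of the same length outside chromosome 8. The palindrome GTCTAGAC, a doubled form of the same site, was in none of the 27 windows and in 0.182% of all windows. The AP-1 site TGAGTCA was in 1 of the 27, at SMAD3, against 4.2% of all. GGCGC was in 14 of the 27, against 44.5%, and GGAATG, the TEAD site, in 2 of the 27, against 11.9%. Counted by gene, CAGAC was in a window of 6 of the 10 members. Some windows of the same gene overlap, as at TGFBR1, so a site can be counted more than once. These matches describe letters in a window, with overlaps of motifs and of windows not removed.

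Per kilobase of exon, PMEPA1 stood first in control at 11 ± 0.808 CPM per kb (SD, n = 3 libraries), followed by TGFBR2 at 8.86 ± 1.86, SMAD3 at 7.13 ± 0.493 and SKIL at 7.08 ± 0.390. TGFB1 (3.41 ± 2), TGFBR1 (1.86 ± 0.389) and TGFB2 (1.81 ± 0.316) came next, then LTBP2 (0.842 ± 0.0884), SMAD7 (0.781 ± 0.300) and TGFBI (0.144 ± 0.144). The libraries of neighbours in this order overlapped for PMEPA1 and TGFBR2, SMAD3 and SKIL, TGFB1 and TGFBR1, TGFBR1 and TGFB2, and LTBP2 and SMAD7, and did not overlap at the other 4 steps. The receptor TGFBR2, SMAD3 and the inhibitors SKIL and PMEPA1 therefore carried most of the counts, and both ligands and SMAD7 were sparse. The lengths are those of all annotated exons merged, so a gene read from a short isoform is placed too low.

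**Figure D1:**
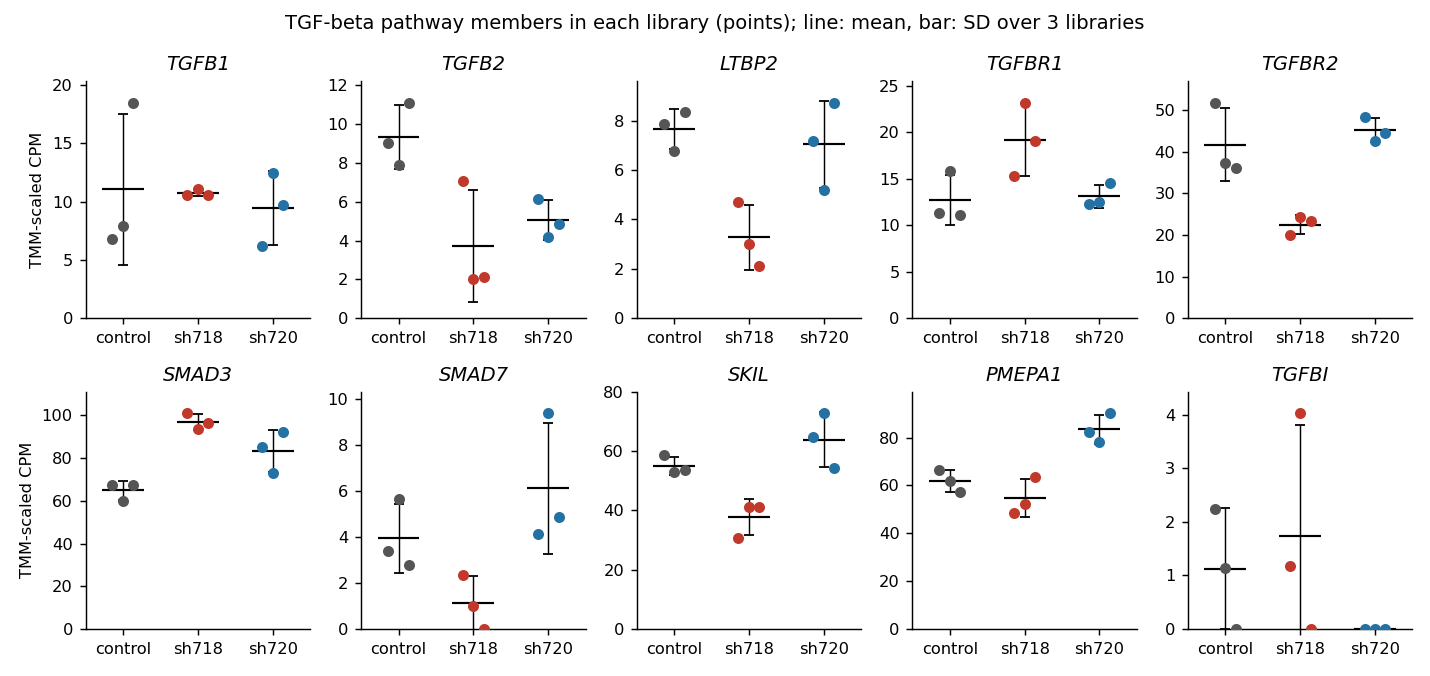
TMM-scaled CPM (vertical axes, from 0, scaled per panel) of the 10 members in the 3 libraries of each line; points are libraries, the horizontal line is the mean and the bar the SD over 3 libraries. TGFBR2 and SKIL lay lower in every sh718 library than in any other library, PMEPA1 lay highest in the sh720 libraries, and SMAD3 lay lowest in the control libraries.

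In sh718 against control, 3 of the 6 tested members were called: SMAD3 rose, and TGFBR2 and SKIL fell. Over all 9556 tested genes 20.4% were called in this comparison, 9.56% higher and 10.8% lower. The tested members' median change was -0.13, against 0.00 for all tested genes. In sh720 against control edgeR called 0 of the 6, where 6.85% of all genes were called (3.43% higher and 3.42% lower), and the members' median was 0.17. Unadjusted p-values were under 0.05 for 2 of them, SMAD3 and PMEPA1. DESeq2 also called 0, but gave no adjusted p for TGFB1 and TGFBR1 in this comparison. It gave one for 7147 genes and called 4.17% of these. In sh718 against sh720, which sets the hairpin lines directly against each other, TGFBR2, SKIL and PMEPA1 were called lower in sh718, 3 of the 6 where 25.3% of all genes were called (12.3% higher and 13% lower), with a median of -0.21. The comparisons against control share the control libraries.

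Among the ligands, TGFB1 (ENSG00000105329, chromosome 19, 41301587 to 41353911, minus strand) was the one with enough counts to test. It encodes the founding TGF-beta ligand. Its libraries held 6.76, 7.89 and 18.5 CPM in control, 10.6, 11.1 and 10.6 in sh718, and 6.16, 12.5 and 9.70 in sh720. Control library 3 was the highest of the 9, and the 3 lines overlapped. The change was -0.10 in sh718 (95% interval -0.85 to 0.66, edgeR adjusted p 0.894) and -0.29 in sh720 (-1.05 to 0.48, adjusted p 0.762). Without control library 3 the changes were 0.54 and 0.35, uncalled (adjusted p 0.471 and 0.773). The gene overlaps HNRNPUL1 and CCDC97 on the opposite strand, and whether reads were counted by strand was not stated in the labels.

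TGFB2 (ENSG00000092969, chromosome 1, 218346235 to 218444619, plus strand), the second ligand gene, had 8, 7 and 12 counts in the control libraries, 6, 2 and 2 in sh718 and 6, 4 and 5 in sh720. Every library of both hairpin lines lay below every control library in CPM, but narrowly for 7.07 in sh718 library 1 against 7.89 in control library 2. Libraries did not overlap for 33.5% of all tested genes in sh718 against control. The shares were 23.5% in sh720 against control and 37% in sh718 against sh720. TGFB2 is not among these tested genes. The ratio of summed counts to control, scaled to TMM library sizes, was 0.380 in sh718 (exact 95% interval 0.164 to 0.810) and 0.535 in sh720 (0.264 to 1.04). These intervals cover counting error only. With no count minimum, TGFB2 was called by edgeR with neither hairpin (adjusted p 0.0775 and 0.517).

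LTBP2 (ENSG00000119681, chromosome 14, 74498170 to 74612378, minus strand) encodes a microfibril protein of the latent TGF-beta binding family. It had 7, 6 and 9 counts in control, 4, 3 and 2 in sh718 and 7, 5 and 9 in sh720. The sh718 libraries lay below all others in CPM, and sh720 overlapped control. The ratio to control was 0.420 in sh718 (0.170 to 0.948) and 0.919 in sh720 (0.481 to 1.75), and with no count minimum it was called by edgeR with neither hairpin (adjusted p 0.191 and 0.996).

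The type II receptor gene TGFBR2 (ENSG00000163513, chromosome 3, 30606502 to 30694142, plus strand), whose promoter is printed above, fell in sh718 to about 0.55 of the control level. Its libraries held 51.8, 37.2 and 36.1 CPM in control, 20, 24.2 and 23.3 in sh718, and 48.3, 42.6 and 44.6 in sh720. No sh718 library reached any other library, and sh720 lay inside the control range. By edgeR, sh718 differed from control by a log2 change of -0.87 (SE 0.22, adjusted p 0.00251), while sh720 differed by 0.13 (SE 0.19, 95% interval -0.25 to 0.50, adjusted p 0.787). The hairpin lines differed by -0.99 (SE 0.22, adjusted p 0.000255). DESeq2 called both differences (adjusted p 0.0309 and 0.00704).

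Genes around TGFBR2 were lower in sh718 as well. Of 7 other tested genes that start within 2 Mb of it, 6 were called lower and none higher, with a median of -0.83 beside -0.87 for TGFBR2. They were STT3B (-0.83), a subunit of the oligosaccharyltransferase, OSBPL10 (-0.76), GPD1L (-0.97), CMTM8 (-0.96), CMTM6 (-1.17) and the dynein gene DYNC1LI1 (-0.55), while CMTM7 lay at 0.06. Within 10 Mb, 18 of 44 were called lower and 1 higher, with a median of -0.53. In sh720 the medians within 2 and 10 Mb were 0.01 and 0.06. Within 2 Mb, 1 of the 7 was called higher in sh720 (OSBPL10, 0.68, edgeR adjusted p 0.0113) and 0 lower. Within 10 Mb, 4 of the 44 were called higher in sh720 and 2 lower. Whether TGFBR2 changed apart from its neighbours was not tested.

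**Figure D2:**
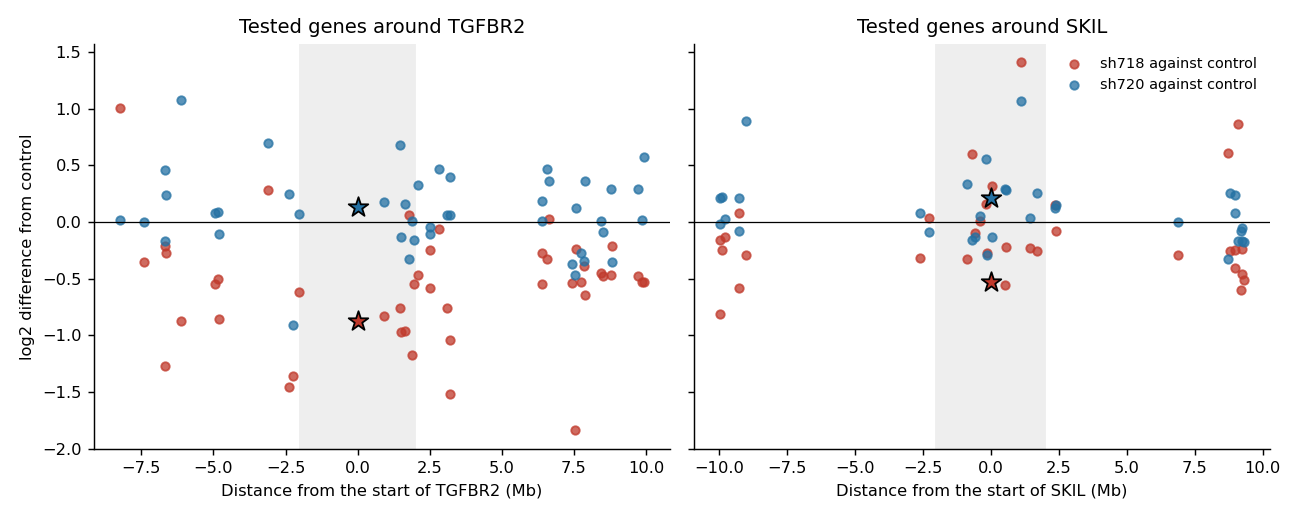
Log2 difference from control (vertical axis) of tested genes against the distance of their start from that of TGFBR2 (left) or SKIL (right), in Mb; stars mark the member and the grey band 2 Mb to each side. Around TGFBR2 the sh718 values lie mostly below 0 (40 of 44 genes) and the sh720 values on both sides of 0; around SKIL, 23 of 33 sh718 values lie below 0.

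The type I receptor gene TGFBR1 (ENSG00000106799, chromosome 9, 99104038 to 99154192, plus strand) held 11.3, 15.8 and 11.1 CPM in control, 15.3, 23.2 and 19.1 in sh718, and 12.3, 12.5 and 14.5 in sh720. The sh718 libraries lay above those of sh720 and overlapped control. By edgeR, sh718 differed from control by 0.61 (SE 0.31, 95% interval -0.00 to 1.23, adjusted p 0.159) and sh720 by 0.06 (SE 0.33, adjusted p 0.955), and neither passed the test. Over the 9 libraries the log2 levels of TGFBR1 and TGFBR2 had a Pearson r of -0.72, a description of libraries that fall into 3 lines.

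The transducer gene SMAD3 (ENSG00000166949, chromosome 15, 67063763 to 67195195, plus strand) was higher in sh718. It held 67.6, 59.8 and 67.5 CPM in control, 101, 93.7 and 96.4 in sh718, and 85.3, 72.8 and 92.1 in sh720. Every library of both hairpin lines lay above every control library. Over all tested genes, 33.5% had sh718 and control libraries that do not overlap, and 23.5% had sh720 and control libraries so. With edgeR, SMAD3 differed by 0.57 between sh718 and control (SE 0.14, adjusted p 0.00156) and passed the test, as it did with DESeq2 (adjusted p 0.0249). In sh720 it was 0.36 (SE 0.14, adjusted p 0.131) and did not. The hairpin lines did not differ by the test (0.21, 95% interval -0.05 to 0.48, adjusted p 0.249). The 22 tested genes within 2 Mb of SMAD3 had a median of -0.06 in sh718 and 0.15 in sh720.

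SKIL (ENSG00000136603, chromosome 3, 170357678 to 170396835, plus strand) encodes SnoN, a repressor that binds SMAD complexes on DNA and is itself switched on by TGF-beta. It held 58.6, 53.0 and 53.7 CPM in control, 30.6, 41.3 and 41.3 in sh718, and 64.7, 72.8 and 54.3 in sh720. The sh718 libraries were the 3 lowest, with library 1 below the other 2, and sh720 overlapped control. With edgeR, sh718 differed from control by -0.53 (SE 0.18, adjusted p 0.0293) and sh720 by 0.21 (SE 0.16, 95% interval -0.11 to 0.53, adjusted p 0.521). The sh718 line lay below sh720 by -0.74 (SE 0.18, adjusted p 0.000749), a difference that DESeq2 also called (adjusted p 0.0169).

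The SKIL call against control was lost with DESeq2 (adjusted p 0.162), with no count minimum (0.0526), and without control library 1 (-0.49, 0.0852), control library 3 (-0.56, 0.0532) or sh718 library 1 (-0.41, 0.142). The difference from sh720 was called under every alternative run. The 12 tested genes within 2 Mb of SKIL had a median of -0.16 in sh718, with 1 called lower (the ribosomal protein-like gene RPL22L1, -0.56) and 1 higher (TNIK, 1.41).

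PMEPA1 (ENSG00000124225, chromosome 20, 57648392 to 57711536, minus strand) encodes a membrane protein that is induced by TGF-beta and androgen and limits SMAD2 and SMAD3 phosphorylation. It held 66.4, 62.0 and 57.4 CPM in control, 48.3, 52.4 and 63.6 in sh718, and 82.2, 78.0 and 90.2 in sh720. The sh720 libraries were the 3 highest, and sh718 overlapped control. With edgeR, sh718 differed from control by -0.17 (SE 0.16, 95% interval -0.49 to 0.16, adjusted p 0.514) and sh720 by 0.44 (SE 0.15, adjusted p 0.0539). The sh720 value lay just beyond the threshold, and it was called when library totals replaced TMM (0.48, adjusted p 0.0291), with a count minimum of 150 (0.44, 0.0465) or with only the 6 libraries compared (0.44, 0.0391). DESeq2 gave 0.43 (adjusted p 0.314).

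Between the hairpin lines PMEPA1 was lower in sh718 by -0.60 (SE 0.15, edgeR adjusted p 0.00141), called also by DESeq2 (adjusted p 0.0294). The antisense transcript NKILA overlaps its start and had 9, 7 and 5 summed counts in control, sh718 and sh720.

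SMAD7 (ENSG00000101665, chromosome 18, 48919853 to 48952052, minus strand) encodes the inhibitory SMAD that binds TGFBR1 and is another TGF-beta-induced inhibitor. It had 3, 5 and 3 counts in the control libraries, 2, 1 and 0 in sh718 and 4, 9 and 5 in sh720. The sh718 libraries were the 3 lowest in CPM. From 3 and 18 summed counts, the ratio of sh718 to sh720 was 0.178 (exact 95% interval 0.0335 to 0.608), and from 3 and 11 that of sh718 to control was 0.280 (0.0501 to 1.06). SMAD7 did not meet the count minimum. Without that minimum edgeR called it between the hairpin lines (adjusted p 0.0216, where 10.3% of 21726 genes were called) and not in sh718 or sh720 against control (adjusted p 0.260 and 0.729, with 8.05% and 2.7% of all genes called).

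TGFBI (ENSG00000120708, chromosome 5, 136028895 to 136063818, plus strand), which encodes a secreted adhesion protein named for its induction by TGF-beta, was close to absent. It had 2, 1 and 0 counts in control, 1, 4 and 0 in sh718 and none in sh720. A count of 0 in a line allows up to 3 counts over that line, so no fold is given for sh720 against control. The ratio of sh718 to control was 1.71 (exact 95% interval 0.333 to 11). Its level could not be compared at this depth.

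**Figure D3:**
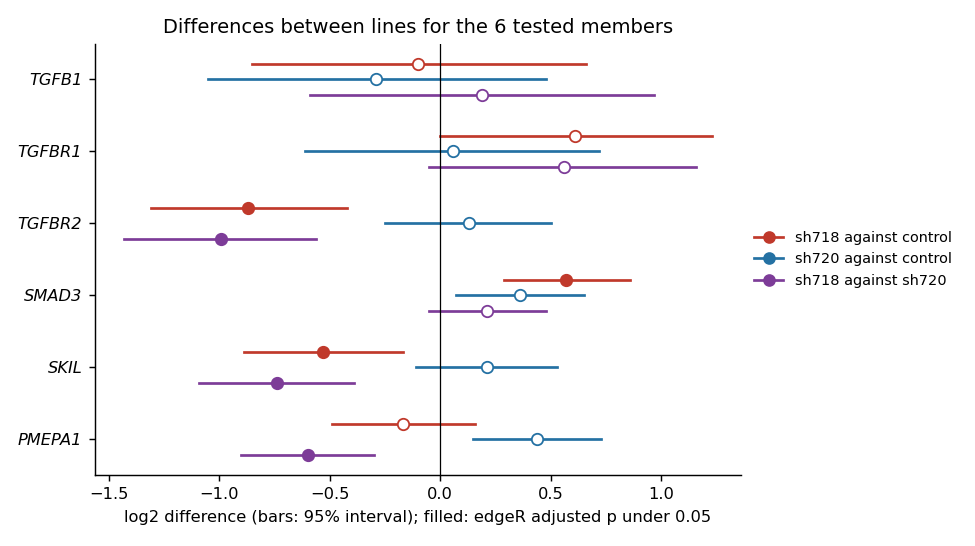
Log2 differences (horizontal axis) with their 95% intervals for the 6 tested members in the 3 comparisons; filled points passed edgeR's test at an adjusted p under 0.05. TGFBR2 and SKIL passed below 0 in both comparisons that involve sh718, PMEPA1 passed below 0 between the hairpins and lay at -0.17, not passing, in sh718 against control, and SMAD3 passed above 0 in sh718 against control.

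The mean CPM of SKIL, PMEPA1 and SMAD7 was lowest in sh718, then control, then sh720 (37.8, 55.1 and 63.9 for SKIL, 54.8, 61.9 and 83.4 for PMEPA1, and 1.12, 3.93 and 6.10 for SMAD7). TGFBR2 had the same order (22.5, 41.7 and 45.2). Of all 9556 tested genes, 20.6% had it too. Single steps of it were uncalled by edgeR, as for PMEPA1 between sh718 and control (adjusted p 0.514) and for SKIL between sh720 and control (0.521). Control and sh720 overlapped for SKIL, SMAD7 and TGFBR2, and control and sh718 for PMEPA1. SMAD3 had another order, lowest in control (65.0), then sh720 (83.4) and sh718 (97.2). Of the 6 tested members, the libraries of sh718 and sh720 did not overlap for 5, and 37% of all tested genes showed the same.

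Genes whose log2 levels ran most like a member over the 9 libraries were read as a description. For TGFBR2 they were its neighbour STT3B (r = 0.99), the iron-sulfur assembly gene BOLA3 (0.99) and the proteasome gene PSMD11 (0.98). Mean levels of STT3B were 87.6 ± 14, 49 ± 3.68 and 98.7 ± 2.07 CPM in control, sh718 and sh720 (SD over 3 libraries). For SKIL they were the actin-bundling gene PLS1 (0.98), the transcription factor gene KLF4 (0.97) and the protease gene PRSS23 (0.97). KLF4 held 34.4 ± 3.24, 19.2 ± 4.40 and 40 ± 10.9 CPM. For PMEPA1 they were GLO1 (0.97), TMEM45B (0.96) and NUCKS1 (0.96), and TMEM45B held 29.9 ± 8.50, 17.4 ± 4.65 and 64.7 ± 7.96 CPM.

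The other genes of the pathway were read from 5 lists of 104 genes, of which 96 were in the table and 79 met the count minimum. In sh718 against control 25 of the 79 were called (31.6%), 15 higher and 10 lower, with a median of 0.05. In sh720 15 were called (19%), 6 higher and 9 lower, with a median of 0.10. Between the hairpins 27 were called (34.2%), 13 higher and 14 lower in sh718, with a median of 0.03. The background shares were the 20.4%, 6.85% and 25.3% given above.

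Among ligands, latency and activation genes, the sh718 line had 3 of 14 tested genes called higher and 2 lower, and the sh720 line 0 and 3. These were 35.7% and 21.4%, where 20.4% and 6.85% of all tested genes were called. INHBB, which encodes an activin subunit, averaged 531 ± 40.6 CPM (SD, n = 3 libraries) with the control hairpin, 764 ± 33.1 in sh718 and 424 ± 23.3 in sh720. It rose by 0.53 in sh718 (edgeR adjusted p 2.94e-08) and changed by -0.32 in sh720 (0.00233), the latter lost without control library 2 (-0.26, 0.0537). LTBP1, the main carrier of latent TGF-beta, held 203, 247 and 147 CPM, for changes of 0.28 (adjusted p 0.0429) and -0.47 (0.00183). The LTBP1 call in sh718 was lost with DESeq2 (0.174), library totals (0.0815), no count minimum (0.0833), or without control library 1 (0.190), control library 2 (0.131) or sh718 library 3 (0.219). FST, which encodes the activin-binding protein follistatin, fell by 0.48 in sh718 (1.74e-07) and lay at 0.01 in sh720.

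INHBA and LTBP3 of the same list were picked after their values were seen. INHBA, the other activin subunit, held 121 ± 14.9 CPM in control, 149 ± 15.5 in sh718 and 66.1 ± 8.67 in sh720. It fell in sh720 (-0.88, edgeR adjusted p 2.24e-06), with 0.30 in sh718 (0.0714). LTBP3 differed between the hairpins in the opposite direction to LTBP1 (-0.72, adjusted p 0.000458, against 0.75, 5.43e-08).

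Of 9 tested receptors and co-receptors besides the members, edgeR called 0 in sh718 against control, with 0 at an unadjusted p under 0.05 and 0 by DESeq2. In sh720 the co-receptor gene NRP1 alone was called, from 739 ± 40.6 CPM in control to 998 ± 31.1 (0.43, edgeR adjusted p 1.17e-06), with 740.0 ± 36.3 in sh718. Over all tested genes, 20.4% were called in sh718 against control and 6.85% in sh720 against control. Some of the 9 had few counts, such as BAMBI (62) and TGFBR3 (64), so a change in them could be missed. Among all tested receptor genes, the members included, TGFBR2 was the one called in sh718 against control. As given above, 6 of 7 tested genes within 2 Mb of TGFBR2 were called lower there too.

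Of 22 tested SMAD genes and regulators, the sh718 line had 1 called higher and 2 lower, and the sh720 line 2 and 1. This was 13.6% in each, where 20.4% and 6.85% of all tested genes were called. FKBP1A, which encodes the immunophilin that binds TGFBR1 and holds it inactive, held 1221 ± 16.5 CPM in control, 1761 ± 45.9 in sh718 and 1003 ± 61.3 in sh720. It rose by 0.53 in sh718 (edgeR adjusted p 2.05e-10) and fell by 0.28 in sh720 (0.000988). SMURF2, a ubiquitin ligase for the receptors and SMADs, rose in sh720 (0.55, adjusted p 0.00363), a call lost with DESeq2 (0.0511) and without sh720 library 3 (0.38, 0.137). NEDD4L, a ligase for activated SMADs, was called between the hairpins alone (-0.37, adjusted p 0.00771), and DESeq2 missed it (0.0580). SMAD2 and SMAD4 lay at 0.09 and 0.26 in sh718 and at 0.06 and 0.22 in sh720, uncalled.

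Between the hairpins 5 of these 22 were called lower in sh718 and 1 higher (27.3%, against 25.3% of all tested genes). The repressor genes TGIF1 and SKI, with SMAD6, were picked after their values were seen. TGIF1 held 61.1 ± 6.45 CPM in control, 54.7 ± 8.27 in sh718 and 96.0 ± 17.0 in sh720, and rose in sh720 (0.66, edgeR adjusted p 0.00126, or 0.50 and 0.0575 without sh720 library 1). Its difference between the hairpins was -0.82 (adjusted p 2.11e-05). SKI, the relative of SKIL, differed by -0.57 (adjusted p 0.0110), a call lost with DESeq2 (0.0982) and without sh718 library 1 (-0.48, 0.0606). SMAD6, the other inhibitory SMAD gene, held 14.4 ± 0.446, 6.94 ± 2.25 and 13.5 ± 0.113 CPM. Its change in sh718 was -1.06 (adjusted p 0.0363), lost with DESeq2 (0.188), with no count minimum (0.0720), without sh718 library 2 (0.148) or 3 (0.0952) and without control library 1, 2 or 3 (0.0678, 0.0714 and 0.0628).

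Genes usually raised by TGF-beta moved in both directions. Of 27 tested, 10 were called higher and 3 lower with sh718 (48.1%), against 2 and 4 with sh720 (22.2%). The medians were 0.05 and 0.10. Between the hairpins 7 were higher and 4 lower in sh718 (40.7%), with a median of 0.41. The shares over all tested genes were 20.4%, 6.85% and 25.3%. DESeq2 called 9, 1 and 8 of the 27. FN1, which encodes fibronectin, was the gene of this list called in 1 direction by both hairpins, from 58.3 ± 8.50 CPM to 29 ± 2.64 in sh718 (-1.01, edgeR adjusted p 3.73e-05) and 35 ± 4.2 in sh720 (-0.74, 0.00359). The sh720 call was lost with DESeq2 (0.0714) and without control library 3 (-0.63, 0.0660).

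The following genes of that list were picked after their values were seen. The cell cycle inhibitor gene CDKN1A held 12.8 ± 5.56, 40.8 ± 4.87 and 14.5 ± 6.13 CPM in control, sh718 and sh720 (SD, n = 3 libraries; 1.68 in sh718, edgeR adjusted p 2.08e-06). The metalloprotease gene ADAM19 rose in sh718 (1.01, 2.34e-10). In sh720 its change was -0.42 (0.0477), lost with DESeq2 (0.176), library totals (0.0980) and no count minimum (0.0787), and without control library 1 (0.124) or 2 (0.188) or sh720 library 1 (0.243) or 2 (0.123).

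In the other direction, PDGFB, a platelet-derived growth factor gene, fell in sh718 (-1.57, edgeR adjusted p 3.73e-06) and CDH2, which encodes N-cadherin, fell there (-0.59, 0.000234). VIM, which encodes vimentin, held 2371 ± 55.2 CPM in control, 2498 ± 146 in sh718 and 2931 ± 136 in sh720, and rose in sh720 (0.31, adjusted p 9.76e-05). In sh718, CDKN1A and ADAM19 were higher and PDGFB and CDH2 lower. These picked genes do not give the balance of the list, in which 10 were called higher and 3 lower in sh718. The cause of these changes was not tested.

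Of 7 tested genes that TGF-beta usually lowers, sh718 had 1 called higher and 3 lower, and sh720 had 1 of each. These were 57.1% and 28.6% of a short list, where 20.4% and 6.85% of all tested genes were called. ID1, which encodes an inhibitor of differentiation, rose in both lines, from 130.5 ± 14.9 CPM to 202 ± 27.2 (0.64, edgeR adjusted p 1.09e-05) and 227 ± 20.1 (0.80, 8.81e-08). Its relative ID2 was lower in both, from 93.8 ± 14.3 CPM to 62.5 ± 13.7 (-0.59, 0.00261) and 41.4 ± 3.95 (-1.16, 1.14e-07), and DESeq2 missed it in sh718 (0.0505). MYC (-0.59, adjusted p 3.80e-05) and EPCAM (-1.39, 2.41e-05), both picked after their values were seen, fell in sh718.

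**Figure D4:**
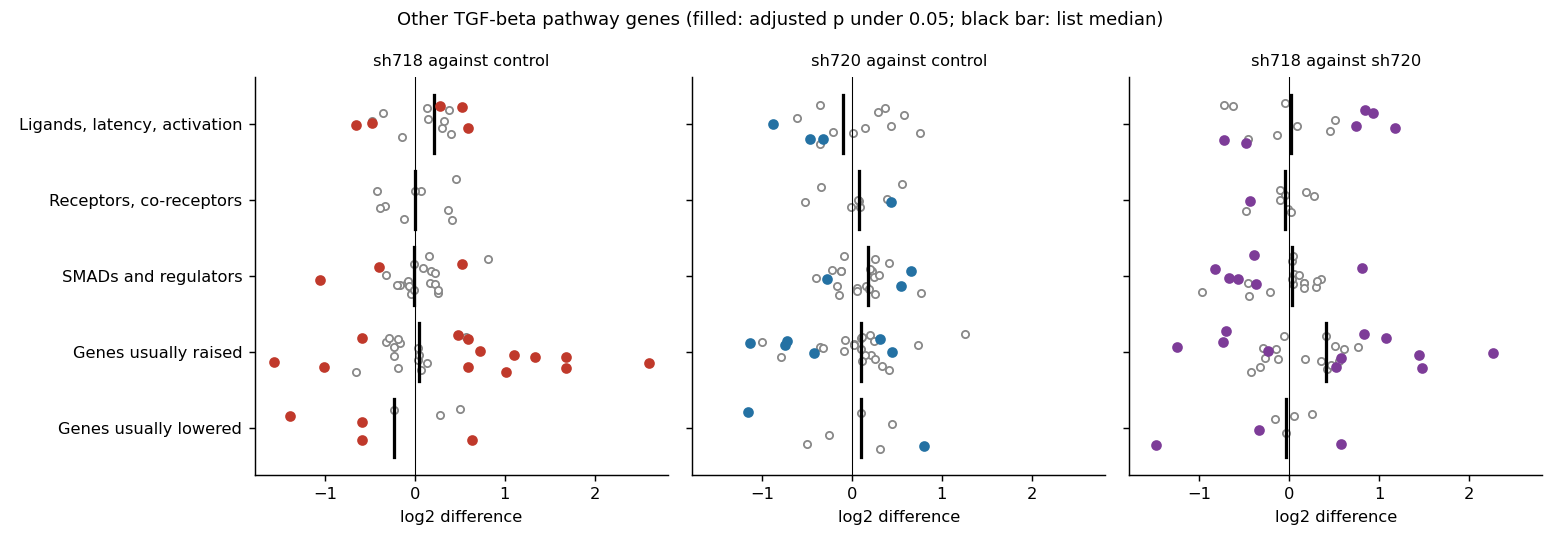
Log2 differences (horizontal axes, same scale) of the tested genes of 5 TGF-beta pathway lists in the 3 comparisons; each point is a gene, filled where edgeR's adjusted p was under 0.05, and the black bar is the list median. Called genes lie on both sides of 0 in most lists. Among genes usually raised by TGF-beta in sh718 against control, 10 were called higher and 3 lower, with PDGFB at -1.57 and CDKN1A at 1.68.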

How the data were processed

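RNA of 3 PC3-Luc lines was sequenced as single reads of 75 bp on a NovaSeq6000, with a stated depth per sample, per the labels' protocols. The authors deposited raw counts per Ensembl gene for 9 libraries, 3 per line, with no normalization; GEO lists 1 sample per line, and the numbered columns were assigned to lines by name. Trim Galore and GRCh38 are named in the submitters' processing notes; no label names the aligner, the counter or the strand setting. Totals were 883663 to 1108960 counts, so a gene at 1 CPM rests on about 1 count.

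Counts were fitted with edgeR 4.0.16 in R 4.3.3 (TMM, glmQLFit, glmQLFTest) in 1 model of the 3 lines, for 9556 genes with at least 60 counts over 9 libraries, with Benjamini-Hochberg adjustment per comparison; the common biological coefficient of variation was 5.89%. SE is the log2 change over the root of the F statistic. The fit was tested on simulated data. Alternatives were DESeq2 1.42.0, other scalings, count minimums, sets of libraries and a library-number block. Positions and exon lengths are from GENCODE v29 (GRCh38; 21258 identifiers found, all on the table's chromosome), promoters from RefSeq. The members, lists and rules were chosen with earlier results of these data known. All members were named; of each list, genes called in 1 direction by both hairpins, otherwise up to 3 called genes with the highest counts; and, of the 3 members with the smallest adjusted p, the 3 genes most like each by Pearson r of log2 CPM (prior count 2). Values of some genes in the lists are not reported here.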

Additional observations from a re-analysis of the deposited data

Results flagged for a closer look

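The change against control differed between the hairpin lines for 3 members by edgeR's direct test of sh718 against sh720. TGFBR2 was lower in sh718 by -0.99 (adjusted p 0.000255), SKIL by -0.74 (0.000749) and PMEPA1 by -0.60 (0.00141). In each case every sh718 library lay below every sh720 library. The calls rest on the same libraries, so this separation is no further support for them. Over all tested genes, called or not, 37% had such a separation in one direction or the other. CTHRC1 also differed between these lines, with 5 and 47 summed counts, and its part in these differences was not tested.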

How the results depend on the processing

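Of 227 values of the 6 tested members under the alternatives, 219 kept their direction or stayed uncalled, 5 lost a call (SKIL in sh718, as given above) and 3 gained one (PMEPA1 in sh720), and none reversed while called. For members called in sh720 against control the main count was 0, and it was 1 with library totals, with at least 150 counts and with only the 6 libraries compared. DESeq2 called fewer genes overall: 447 higher and 560 lower in sh718 (914 and 1033 with edgeR), 132 and 166 in sh720 (328 and 327), and 632 and 661 between the hairpins (1173 and 1246). Leaving out 1 library gave 644 to 808 higher and 832 to 900 lower genes in sh718, 218 to 244 and 239 to 259 in sh720, and 904 to 991 and 988 to 1068 between the hairpins; the 218 came without control library 3. Members called were then 2 to 3, 0 and 3. Same-numbered libraries of different lines had deviations from their line means that correlated at -0.0127 to 0.0219, so the numbers were not taken to pair libraries. With the replicate block, members called were 3, 0 and 3, and genes called higher and lower were 925 and 1052, 343 and 337, and 1174 and 1251. Of 854 values of the other named pathway genes, 41 lost a call, 5 gained one and none reversed while called. At these depths, TGFB2, LTBP2, SMAD7 and TGFBI were too sparse for the test.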
